A study of Mus musculus with 4 samples.

Results

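Synaptic vesicle and secretory granule genes are described here in the aorta of mice with and without Smad4 in smooth muscle cells. The group holds 36 genes of 18193 named on the array, and 87 of the 34945 probe sets that are paired with exactly 1 gene symbol. The members were chosen by symbol, as genes of vesicle fusion, vesicle recycling and the granins, by someone who knew the differences between the genotypes on these same arrays. The rule itself has no threshold. The differences between genotypes are therefore a description of the members and support nothing by themselves.

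The series compared aortas of 6-week-old mice whose smooth muscle cells lacked Smad4 (Smad4-KO), the shared mediator of TGF-beta and BMP signalling, and aortas of their wild-type littermates (WT). There were 4 Affymetrix arrays, 2 per genotype, and each was made from 3 to 5 pooled vessels, of which 400 ng of RNA was used. Which Cre line drove the deletion, which part of Smad4 it removed and how much of the aorta was taken is not given in the sources used here. Pools of a genotype are separate biological samples per the labels, and the spread between them is the spread between pools, not between animals. In such bulk RNA, fewer cells of a type and less RNA per cell cannot be told apart.

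Neurons release transmitter when a vesicle carrying a synaptobrevin meets syntaxin and SNAP-25 in the plasma membrane and the SNARE proteins zip together. Synaptotagmins sense the calcium that triggers fusion, complexins clamp and then help it, and the vesicle membrane is afterwards recovered by endocytosis. Peptides and catecholamines are stored in larger dense-core granules, whose matrix is built from granins. The aortic wall has few neurons of its own, but sympathetic axons end in its outer layer and ganglia lie beside it.

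Facts of the arrays come first. Median signals were 111 and 132 in WT against 133 and 137 in Smad4-KO, on a linear scale in which the trimmed mean of every array is 500. The brightest Smad4 probe set read 4394 and 3819 in WT against 2676 and 3580 in Smad4-KO. Its log2 difference, -0.40, missed the threshold (adjusted p = 0.76, limma on single probe sets), as did those of the other two Smad4 probe sets (-0.90 and -0.43), and whether any of them lies in the deleted part is not known. Smooth muscle markers were strong on all arrays, with a summed signal over 8 genes of 135388 and 162209 in WT against 63283 and 71325 in Smad4-KO. Skeletal muscle markers stood out on Smad4-KO replicate 2 (11634, against 609 to 1085 on the other arrays). Where a member was under 64 on a WT array, its fold is given as a lower bound, computed with signals under 64 raised to 64 and without allowance for the spread between arrays. The log2 difference beside such a bound is the fitted value on the signals as deposited, and is no bound.

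Of the 36 members, 35 passed the filter on low signal and were tested, and 19 of them rose in Smad4-KO at an adjusted p under 0.05 over all 13645 genes (limma). Over all genes, 4.92% were called higher and 1.39% lower. No member was called lower (0 of 35; 1, Stx1a, was lower at an unadjusted p under 0.05). Both Smad4-KO arrays lay above both WT arrays for 30 members and below them for 2, against 25.9% and 21.4% of all genes, and 3 members overlapped. The median log2 difference of the members tested was 2.49, that of all genes -0.01. In the 4 pairs of a Smad4-KO with a WT array the members' median lay between 2.43 and 2.61. Leaving out WT replicate 2 ended every call: limma then called 0 members and 0 genes (25 members and 1791 genes at an unadjusted p under 0.05), while the members' median stayed at 2.49 and the lowest adjusted p of a member was 0.0552. Without WT replicate 1 it called 13 members. In both fits the lone WT array is assumed to vary like the Smad4-KO arrays. The filter matters as much, since with genes of low signal kept limma called 0 of 36 (27 at an unadjusted p under 0.05). The filter and the choice of the brightest probe set used the mean over all 4 arrays, Smad4-KO included. Among genes dim in WT, the filter therefore kept those with higher Smad4-KO signals. The WT means of Amph, Bsn, Rims1, Rims2, Scg5 and Unc13a lay under its cut, and their Smad4-KO signals carried them past it. Without the filter the median over all 36 members was also 2.49. The counts of calls describe the contrast the members were chosen with, so nothing is read from them beside the shares of all genes.

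**Figure D1:**
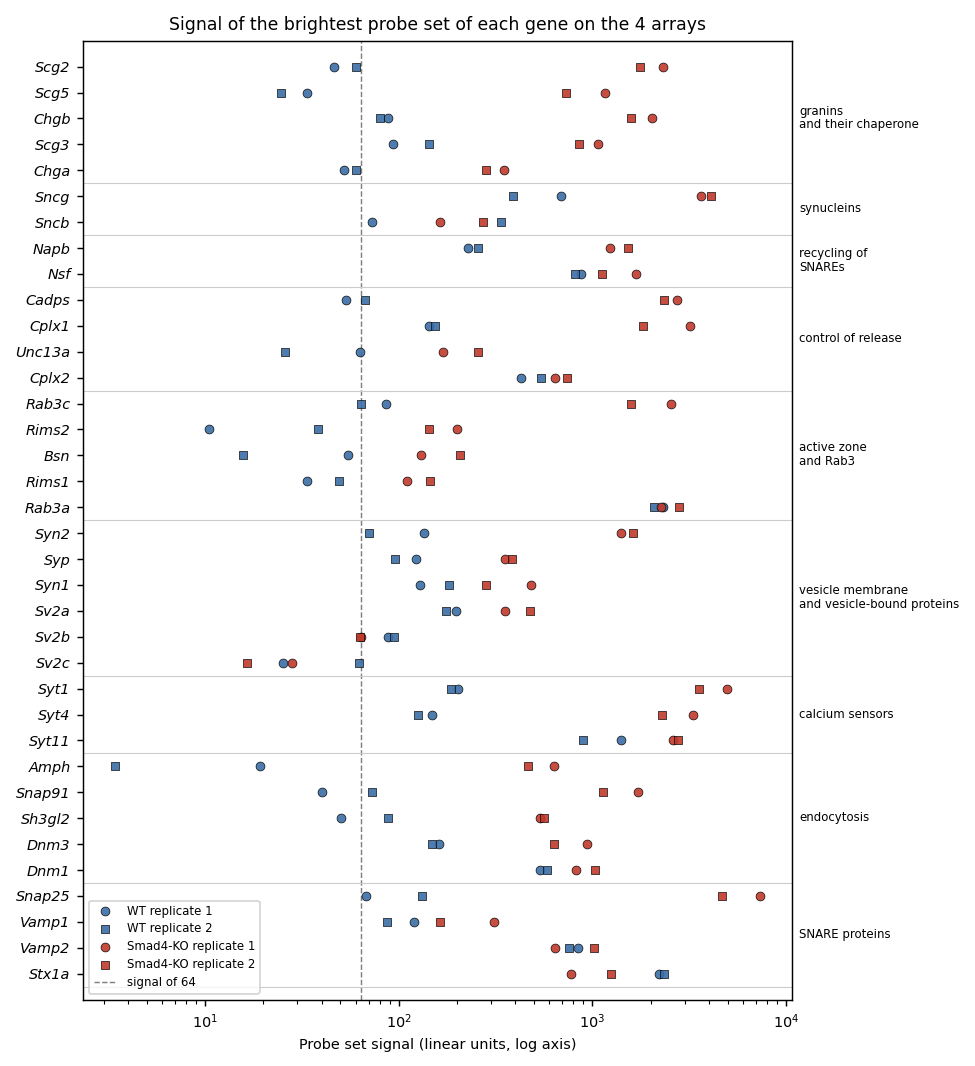
Signal of the brightest probe set of each of the 36 genes on the 4 arrays (x axis, linear units on a log axis), grouped by role; circles are replicate 1 and squares replicate 2, and the dashed line marks a signal of 64. Cadps, Scg2, Rab3c and Snap91 have WT signals near the line and Smad4-KO signals far to its right, while those of Vamp2, Rab3a and Sncb overlap.

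The SNARE genes themselves were unlike each other. Snap25, the plasma membrane SNARE of neurons, had signals of 68.0 and 132 in WT, against 7332 and 4675 in Smad4-KO. The genotypes were far apart, and Snap25 rose 61.8-fold (log2 difference 5.95 ± 0.45, where ± gives the standard error from limma). Its second, dimmer probe set also had both Smad4-KO arrays above WT, with 20.8 and 38.8 against 315 and 170, and the mean of both gave a log2 difference of 4.49. Stx1a, the neuronal syntaxin that pairs with Snap25, had 2200 and 2359 in WT, against 780 and 1256 in Smad4-KO. The genotypes did not overlap, but its log2 difference, -1.20 ± 0.36, missed the threshold (adjusted p = 0.137). Its other probe set gave 343 and 367 against 128 and 168. The brighter Stx1a probe set carries the suffix that Affymetrix gives to sets with probes that may match other transcripts, and the dimmer one does not. Vamp2, the main synaptobrevin of brain synapses, overlapped between genotypes, at 840 and 755 in WT, against 641 and 1018 in Smad4-KO (0.02 ± 0.36). Vamp1, a close relative found at motor nerve endings, read 121 and 86.8 in WT against 311 and 163 in Smad4-KO (1.14 ± 0.43, adjusted p = 0.232). A second Vamp1 probe set was under 64 on 3 arrays and overlapped. Of the 4 SNARE genes, 1 was thus called.

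After fusion the SNARE complex is pulled apart by the ATPase Nsf with its SNAP adaptors. Napb, the adaptor found mainly in brain, read 229 and 258 in WT against 1231 and 1522 in Smad4-KO and rose 5.63-fold (2.49 ± 0.31). It had 6 probe sets, of which 5 had both Smad4-KO arrays above WT, and the clearest read 118 and 170 against 1370 and 1385. Nsf, which every cell uses for membrane traffic, read 876 and 814 in WT against 1680 and 1120 in Smad4-KO, which falls short of the threshold (0.70 ± 0.34, adjusted p = 0.362). Of the 4 Nsf probe sets only this 1 lay above WT, 2 overlapped, and 1, under 64 on all arrays, lay below. Leaving out WT replicate 1 ended the call of Napb (adjusted p = 0.0795), as did the mean of its probe sets (adjusted p = 0.0825).

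Among the calcium sensors, Syt1, which triggers fast release, read 203 and 187 in WT against 4971 and 3544 in Smad4-KO. The 2 groups did not come near each other, and Syt1 rose 21.6-fold (4.43 ± 0.33). All 4 of its probe sets had both Smad4-KO arrays above WT. Syt4, a synaptotagmin of dense-core granules whose first calcium-binding domain has lost a calcium ligand, read 148 and 126 against 3298 and 2306 and rose 20.2-fold (4.34 ± 0.34). The other Syt4 probe set gave much the same size, 4.21 on the log2 scale. Syt11, which binds no calcium and is made by many cell types, had clear WT signals of 1402 and 895 and Smad4-KO signals of 2600 and 2776. Its difference of 1.26 ± 0.35 did not pass (adjusted p = 0.116), although 4 of its 5 probe sets had both Smad4-KO arrays above WT.

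Proteins that prepare vesicles for release were uneven. Cadps, a priming factor of dense-core granules, had WT signals of 53.5 and 67.1 and Smad4-KO signals of 2754 and 2357. It rose at least 38.9-fold (5.41 ± 0.31), with replicates close to each other in both genotypes. Cplx1, a complexin, read 144 and 154 in WT against 3215 and 1838 in Smad4-KO and rose 16.4-fold (4.03 ± 0.38). One of its 3 probe sets did not follow, reading 248 and 295 against 382 and 250. Cplx2, the other complexin, had a brightest probe set of 427 and 544 in WT against 643 and 743 in Smad4-KO (0.52 ± 0.31, adjusted p = 0.485). Its dimmest probe set, at 7.83 and 75.2 against 303 and 217, showed a wider gap, and the remaining one was high on Smad4-KO replicate 2 alone (1810). Unc13a, the main vesicle priming protein of synapses, read 63.3 and 25.9 in WT against 170 and 257 in Smad4-KO, without overlap but short of the threshold (2.36 ± 0.52, adjusted p = 0.0634).

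At the active zone, the patch of membrane where vesicles dock, only Rab3c was called among the 5 genes. This vesicle GTPase read 86.0 and 63.957 in WT against 2557 and 1582 in Smad4-KO, rising at least 27.1-fold (4.76 ± 0.38), and all 5 of its probe sets had both Smad4-KO arrays above WT. Rab3a, its best-known relative, overlapped at 2330 and 2091 against 2268 and 2806 (0.19 ± 0.31). That probe set carries the same Affymetrix suffix as the brighter Stx1a set. A dimmer Rab3a probe set without the suffix did not overlap, at 326 and 214 against 427 and 545 (log2 difference 0.87, not called). The scaffolds were dim in WT: Rims1 read 33.5 and 48.9, Rims2 10.5 and 38.3, and Bsn (bassoon) 54.5 and 15.6. In Smad4-KO they read 110 and 145, 199 and 143, and 131 and 206 in that order, each above both WT arrays. None of the 3 passed in limma (adjusted p = 0.0605, 0.0584 and 0.0985), and all 3 had an unadjusted p under 0.05. Of the 5 Rims2 probe sets 3 lay above WT, 1 below and 1 overlapped. The remaining 2 Bsn probe sets overlapped between genotypes. The brighter of them read 80.1 and 65.1 in WT against 31.2 and 99.4 in Smad4-KO, and in WT it was the brightest Bsn probe set.

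**Figure D2:**
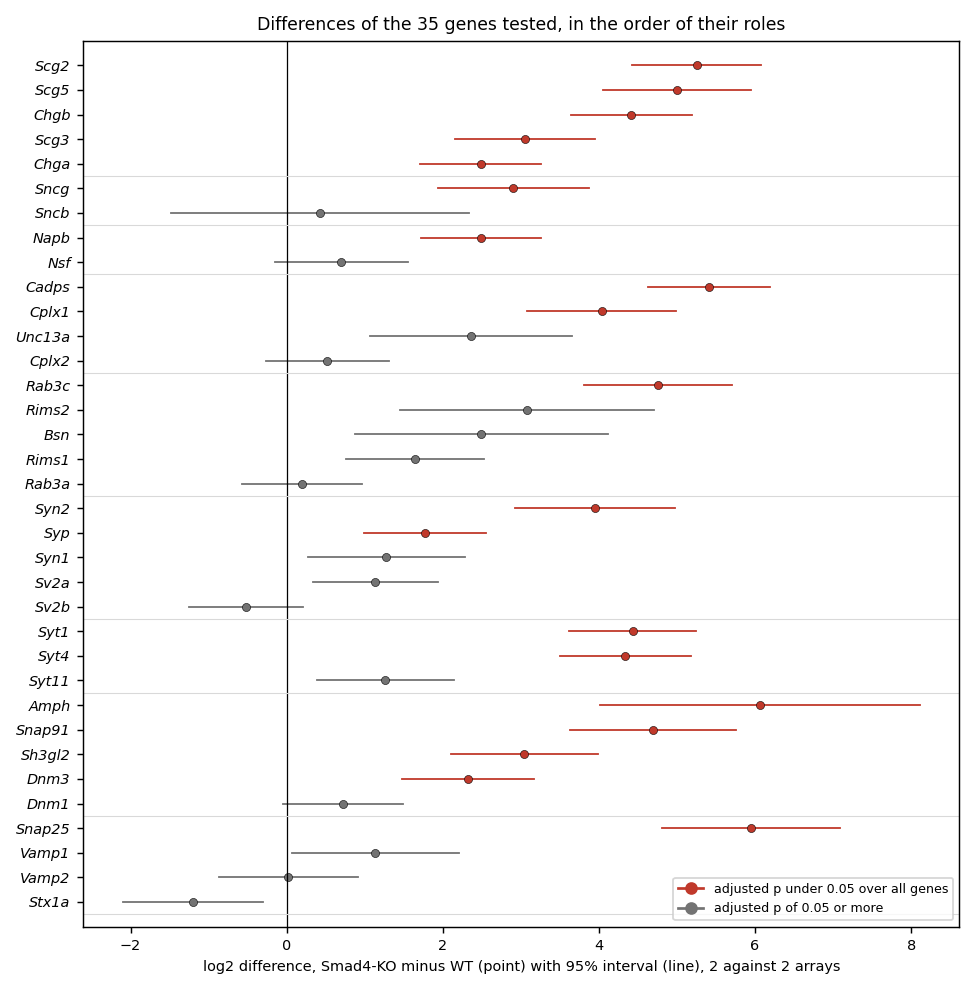
log2 differences, Smad4-KO minus WT, of the 35 genes tested with their 95% intervals from limma, grouped by role; red marks an adjusted p under 0.05 over all genes. All 5 granin genes and 4 of the 5 endocytosis genes are red, and Stx1a and Sv2b lie left of 0.

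Of the proteins that sit in or on the vesicle membrane, Syn2 had the largest difference. This synapsin, which tethers vesicles in the reserve pool, read 136 and 70.5 in WT against 1411 and 1625 in Smad4-KO and rose 15.5-fold (3.95 ± 0.41). Of its 6 probe sets 5 had both Smad4-KO arrays above WT, and the remaining one was under 64 throughout. Syn1, the X-linked synapsin, read 128 and 181 in WT against 483 and 282 in Smad4-KO (1.28 ± 0.40, adjusted p = 0.157). Syp, synaptophysin, a standard marker of synaptic vesicles, read 123 and 95.4 against 353 and 385 and rose 3.41-fold (1.77 ± 0.31). Its call was the least steady of the 19, with 9 of 12 alternatives ending it (adjusted p between 0.0272 and 0.948 over the 12). The log2 difference itself stayed between 1.59 and 1.95 in all of them but the mean of its probe sets (0.14), since the second probe set was dim and overlapped. The glycoprotein Sv2a read 197 and 175 in WT against 352 and 474 in Smad4-KO without passing (1.14 ± 0.32, adjusted p = 0.12). Sv2b was slightly below WT at 64.2 and 63.1 against 87.6 and 95.042 (-0.52 ± 0.29, adjusted p = 0.443), with its other probe set overlapping. Sv2c, at 25.1 and 62.1 in WT against 28.0 and 16.5 in Smad4-KO, was the member left out by the filter.

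Endocytosis genes had 4 calls among 5. Amph, amphiphysin, which bends membrane and recruits dynamin, read 19.3 and 3.44 in WT against 636 and 465 in Smad4-KO. Both WT signals were under 64, and the rise can be given only as at least 8.50-fold. Its log2 difference was 6.06 as measured, 3.09 with the floor of 64, and 4.82 or 7.31 with a WT array left out. Snap91, the clathrin adaptor AP180 of neurons, read 40.3 and 72.5 against 1724 and 1134 and rose at least 20.5-fold (4.69 ± 0.43). Its second probe set stayed under 10 on all arrays (4.49 to 6.88). Sh3gl2, endophilin A1, read 50.5 and 88.3 in WT against 540 and 563 in Smad4-KO, at least 7.33-fold higher (3.05 ± 0.38), and all 3 probe sets were above WT. Dnm3, a dynamin of neurons and testis, read 162 and 148 against 940 and 637 and rose 4.99-fold (2.32 ± 0.34), while 3 of its 5 probe sets, all dim, overlapped. Dnm1, the dynamin of nerve terminals, read 539 and 581 in WT against 828 and 1031 in Smad4-KO and did not pass (0.72 ± 0.31, adjusted p = 0.288). Without WT replicate 1 the calls of Dnm3 (adjusted p = 0.094) and Sh3gl2 (adjusted p = 0.0643) were lost.

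Of the pair of synucleins 1 was called. Sncg, found in peripheral neurons and also in fat cells, read 688 and 389 in WT against 3642 and 4114 in Smad4-KO and rose 7.48-fold (2.90 ± 0.39). Of 6 fat cell markers 5 overlapped between genotypes, and the summed signal, carried mostly by Fabp4 and Adipoq, was 72678 and 67439 in the first replicates (WT, then Smad4-KO) but 30922 and 32328 in the second ones. The remaining one, Ucp1 of brown fat, read 9417 and 1170 in WT against 773 and 69.9 in Smad4-KO (adjusted p = 0.222). The part of fat cells in the Sncg difference was not tested. Sncb, a synuclein of the brain, read 72.7 and 338 in WT against 164 and 272 in Smad4-KO, and its WT replicates enclosed both Smad4-KO arrays (0.43 ± 0.76).

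The granins were the one role in which every member was called, 5 of 5. Chga, chromogranin A, the precursor of several peptides, read 52.0 and 60.3 in WT against 348 and 283 in Smad4-KO and rose at least 4.91-fold (2.49 ± 0.31). Chgb, chromogranin B, read 88.5 and 80.5 against 2036 and 1593 and rose 21.3-fold (4.42 ± 0.31). Scg2, secretogranin II, read 46.6 and 60.5 against 2307 and 1767, at least 31.5-fold higher (5.25 ± 0.33). WT replicates of these 3 genes lay within 0.38 log2 units of each other. Scg3, which anchors granins to the granule membrane, read 93.5 and 143 in WT against 1077 and 856 in Smad4-KO and rose 8.31-fold (3.05 ± 0.36). Scg5, also called 7B2, the chaperone of the prohormone convertase PC2, read 33.6 and 24.6 against 1168 and 730, at least 14.4-fold higher (5.01 ± 0.38). Each had 1 probe set, so no second measure of the gene was at hand. Without WT replicate 1 the calls of Chga (adjusted p = 0.081) and Scg3 (adjusted p = 0.0643) were lost.

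Granin promoters are known for a cAMP response element, the site of the factor CREB, close to the start of transcription. The element TGACGTCA, which reads the same on both strands, was looked for in RefSeq windows (GRCm38.p6) from 250 bases before to 50 after a start. Of the 36 members 32 had a window, 38 windows in all, and 4 windows held it, those of Chgb, Scg2, Sh3gl2 and Syn1 (10.5%, against 1.79% of all 32851 windows). These windows are shown because the granins moved together, and the others that hold the element are given with them. Each runs 5′ to 3′ over the 250 bases before the start, with the element in capitals.
Chgb (chr2:132781392-132781641, plus strand): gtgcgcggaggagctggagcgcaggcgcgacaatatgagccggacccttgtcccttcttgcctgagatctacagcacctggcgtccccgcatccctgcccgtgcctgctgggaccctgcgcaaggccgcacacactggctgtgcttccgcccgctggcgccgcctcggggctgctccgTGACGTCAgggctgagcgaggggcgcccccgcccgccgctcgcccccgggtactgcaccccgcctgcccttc
Scg2 (chr1:79440027-79440276, minus strand): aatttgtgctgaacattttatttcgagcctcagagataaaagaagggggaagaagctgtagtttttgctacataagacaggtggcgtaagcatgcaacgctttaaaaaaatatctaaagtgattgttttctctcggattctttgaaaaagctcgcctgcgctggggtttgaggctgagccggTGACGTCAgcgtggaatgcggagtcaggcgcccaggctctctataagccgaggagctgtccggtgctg
Sh3gl2 (chr4:85205206-85205455, plus strand): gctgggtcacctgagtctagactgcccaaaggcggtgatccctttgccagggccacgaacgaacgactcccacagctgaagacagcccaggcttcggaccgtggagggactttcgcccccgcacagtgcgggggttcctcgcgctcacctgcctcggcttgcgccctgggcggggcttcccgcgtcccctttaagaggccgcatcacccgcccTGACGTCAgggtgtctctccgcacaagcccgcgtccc
Syn1 (chrX:20920919-20921168, minus strand): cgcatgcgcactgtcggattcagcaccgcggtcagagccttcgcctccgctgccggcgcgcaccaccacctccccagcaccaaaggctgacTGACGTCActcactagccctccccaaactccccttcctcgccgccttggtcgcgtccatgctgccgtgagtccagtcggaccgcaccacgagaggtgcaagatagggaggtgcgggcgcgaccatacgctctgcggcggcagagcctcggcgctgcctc

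The element began 72 bases before the start in Chgb, 68 in Scg2, 37 in Sh3gl2 and 159 in Syn1. The first 3 genes were called higher and Syn1 was not. The windows of Chga, Scg3 and Scg5, also called, did not hold the full element, and nor did those of most other called members. Whether the element has a part in any difference was not tested. The shorter form of 5 bases, TGACG, which lies inside the full element, was found on either strand in 13 members, the 5 granins among them (34.2% of member windows, 20.8% of all). The Sp1 box GGGCGG was in 57.9% of member windows and 35.7% of all, and the median GC content was 60.5% against 52.7%. The median ratio of observed to expected CpG (C followed by G) was 0.692 in member windows and 0.384 in all. The cAMP response element, its shorter form and the Sp1 box each contain a CpG. The part of base composition in their shares was not tested. The RE1 site of the neuronal repressor REST was searched as CAGCACC and GGACAG with 2 bases between them, on either strand. Only exact letters were counted, and 0 of 38 windows held them, against 0.037% of all windows. At so low a share a count of 0 says little. In the Syn1 window CAGCACC is followed, after 2 bases, by GGTCAG in place of GGACAG, and such near matches were not counted. The left part of the RE1 site alone, CAGCACC, was in 13.2% of member windows and 7.14% of all. TATAAA in the 50 bases before the start was in 0 of 38 and in 2.63% of all. A match is a description of letters, and no match says only that they are not in this window. All these motifs, the cAMP response element included, were picked with the members' differences known, so the shares are a description alone.

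**Figure D3:**
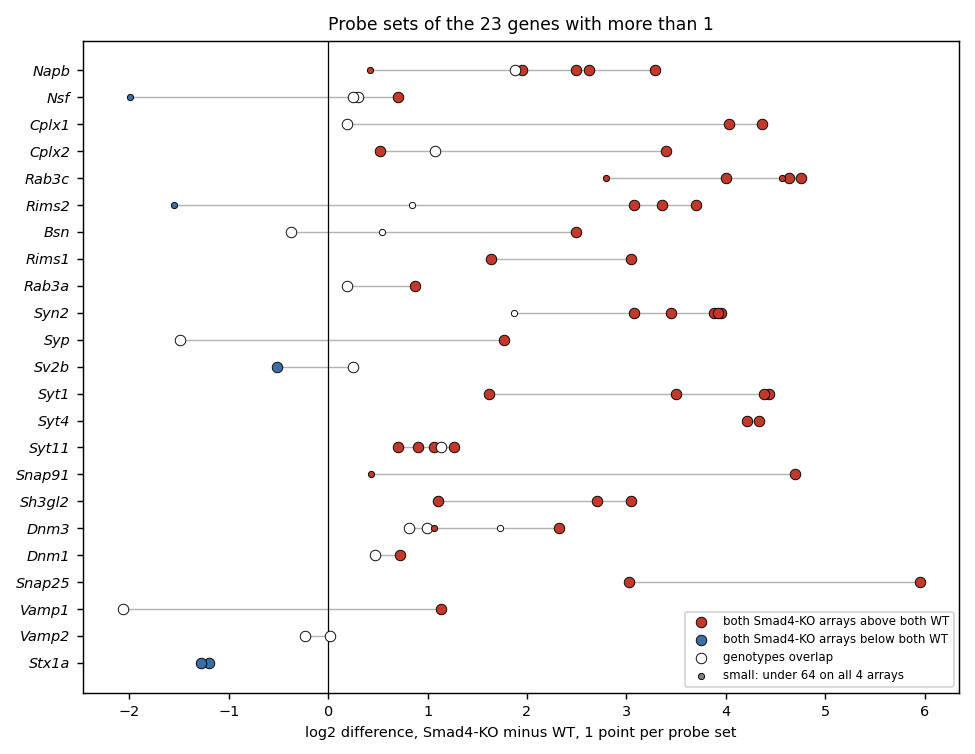
log2 differences, Smad4-KO minus WT, of every probe set of the 23 genes that have more than 1; red and blue mark probe sets whose Smad4-KO arrays both lie above or both below the WT arrays, white marks overlap, and small points are under 64 on all 4 arrays. Syt1, Syt4, Rab3c, Rims1, Sh3gl2, Snap25 and Snap91 have red points alone, and Stx1a blue points alone.

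Probe set by probe set the description holds with fewer calls. Of the 87 member probe sets 60 had both Smad4-KO arrays above both WT arrays (21.5% of all named probe sets did), 5 had both below and 22 overlapped. In a fit of every probe set that passed the filter, 15 of 67 were called higher, where 0.702% of all probe sets were, and none lower in limma (0.0801% of all). A further measure is the crossing of a signal of 64: 19 member probe sets (21.8%) were under 64 on both WT arrays and at 64 or more on both Smad4-KO arrays, against 2.7% of all named probe sets, and 0 crossed it the other way. Of the 23 members with more than 1 probe set, 7 had all of them above WT. For this count, the reverse crossing, the 5 below and the 22 overlapping, shares over the whole array were not computed. Those counts are a description alone. When probe sets of a gene were averaged instead of taking the brightest, the log2 difference was 4.49 for Snap25 (5.95 for the brightest), 2.56 for Snap91 (4.69), 2.86 for Cplx1 (4.03), 3.48 for Syt1 (4.43), 2.29 for Sh3gl2 (3.05) and 3.36 for Syn2 (3.95), each still called, and Rab3c and Dnm3 dropped below the filter. The folds given for these genes are those of the brightest probe set. Different probe sets of 1 gene share their RNA and are not replicates.

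Genes of the same machinery outside the group were sorted into lists with earlier results of these data known. How widely cells express the genes was not measured here. Of 28 further genes of release and vesicles that could be tested, 9 rose and 0 fell, with a median of 1.47. Slc18a2, the vesicular monoamine transporter of sympathetic neurons, read 76.1 and 197 in WT against 5779 and 3450 in Smad4-KO (5.19 ± 0.55). Syt9, a calcium sensor, read 38.2 and 11.9 against 620 and 631, Erc2, an active zone protein, 30.6 and 8.87 against 359 and 360, and Rims3 31.8 and 35.5 against 215 and 191. After quantile normalization or centring on the array median 6 of these 28 were called. Of 11 other granule genes, 6 rose and 0 fell, with a median of 3.49: Npy, neuropeptide Y, read 642 and 102 against 7282 and 15202, Dbh, which makes noradrenaline inside the granule, 154 and 124 against 3886 and 2652, Gal, galanin, 43.5 and 10.9 against 478 and 523, and Ptprn2, a granule membrane protein, 26.6 and 51.7 against 746 and 536. Cpe and Pam, the enzymes that trim and amidate peptides, were the 2 with both Smad4-KO arrays below WT and were picked out after their values were seen. Cpe read 28876 and 31751 in WT against 14594 and 14339 in Smad4-KO (-1.07 ± 0.29, adjusted p = 0.113), and Pam 6207 and 13481 against 2887 and 4389 (-1.36 ± 0.48, adjusted p = 0.202).

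None of the genes listed as counterparts of the members that most cells express was called. Of 37 such genes tested, limma called 0 in either direction (1 at an unadjusted p under 0.05), against 4.92% higher and 1.39% lower over all genes. At these shares few calls would fall among 37 genes. Both Smad4-KO arrays lay above both WT arrays for 11 counterparts and below for 6, against 25.9% and 21.4% of all genes. The counterparts' median was 0.09, and their differences ran from -0.64 to 0.93. That median turned to -0.06 when each array was centred on its median, a scaling that moved the median of all genes to -0.16. The 2 with the lowest unadjusted p were Stxbp2, a partner of syntaxins in blood cells (0.93 ± 0.35, adjusted p = 0.231), and Stx7, a syntaxin of late endosomes (0.72 ± 0.30, adjusted p = 0.286). Snap23, the widespread relative of Snap25 and picked out here for that reason with its values known, read 1522 and 2110 in WT against 2074 and 1120 in Smad4-KO. Its genotypes overlapped, where those of Snap25 lay 61.8-fold apart.

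**Figure D4:**
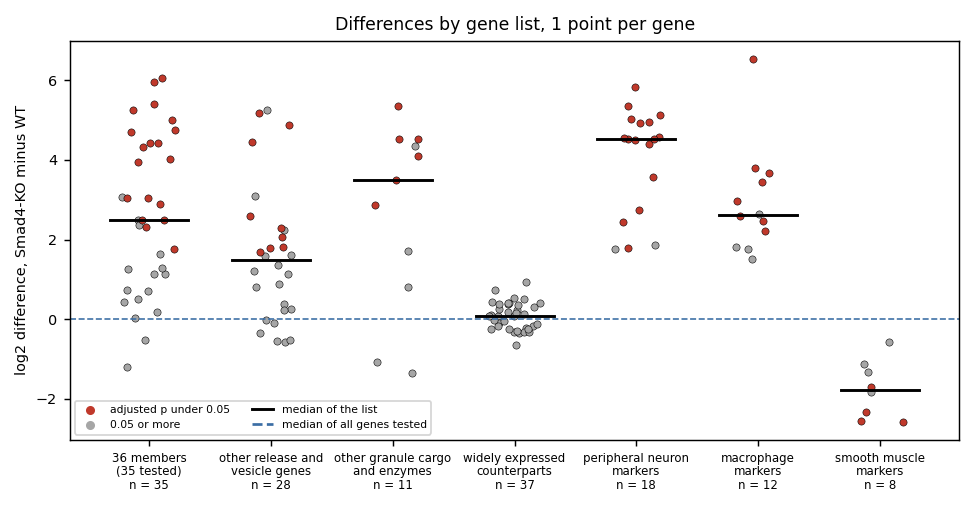
log2 differences, Smad4-KO minus WT, of the tested genes of 7 lists, 1 point per gene, red where the adjusted p over all genes is under 0.05; black bars are list medians and the dashed line is the median of all genes tested. The members (median 2.49) spread from -1.20 to 6.06, the highest being Amph with WT signals under 64, and the widely expressed counterparts (median 0.09) stay near 0.

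Markers of several cell types moved with these genes on the same arrays. All 18 tested markers of peripheral neurons had both Smad4-KO arrays above both WT arrays, 16 of them called, and their summed signal was 4106 and 2719 in WT against 58811 and 59942 in Smad4-KO. The noradrenaline transporter Slc6a2 and Th were among them, as were Dbh and Npy of the granule list, and 0 of the 18 were under 64 on all arrays. Macrophage markers, 12 of 12 higher on both Smad4-KO arrays and 8 called, summed to 15796 and 10366 in WT against 61060 and 80733 in Smad4-KO. Of 7 Schwann cell markers 5 had both Smad4-KO arrays above WT and 3 were called, Cdh19 (10.7-fold), Mbp (3.98-fold) and Foxd3 (at least 2.71-fold), while Sox10 and Pmp22 had both below without a call. Their sums, 11331 and 11080 against 12872 and 13089, were mostly Pmp22 (9820 and 9502 in WT). Of 5 chromaffin cell markers 4 had both Smad4-KO arrays above WT and 2 were called, Th and Dbh, which sympathetic neurons also express. Their sums were 1707 and 1289 in WT against 9979 and 8171 in Smad4-KO. The vesicular transporter Slc18a1 read 268 and 126 against 605 and 604 (adjusted p = 0.0927), and Pnmt, which makes adrenaline in the adrenal medulla, overlapped at 341 and 289 against 225 and 321. Adrenal cortex markers summed to 391.7 and 355 in WT and to 1616 and 466 in Smad4-KO, with 0 of 3 called by limma and 0 at an unadjusted p under 0.05. Brain markers summed to 262 and 227 against 323 and 298, and 4 of 8, Neurod6, Olig2, Mog and Tbr1, were under 64 on all arrays. The part of any of these cells in the members' differences was not tested.

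The Smad4-KO arrays also differed from each other. For 14 of the 19 members called higher, Smad4-KO replicate 1 lay above replicate 2, with a median log2 difference between the replicates of 0.38, and all 5 granin genes were among the 14. Over the 672 genes called higher in Smad4-KO, replicate 1 lay above replicate 2 in 40.6%, with a median of -0.13. Cplx1 had the widest gap (0.81) and Napb the widest the other way (-0.31). Peripheral neuron markers had a median of 0.10 and macrophage markers one of -0.30 between the same arrays. These are 2 pools, so no test of their difference was made.

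**Figure D5:**
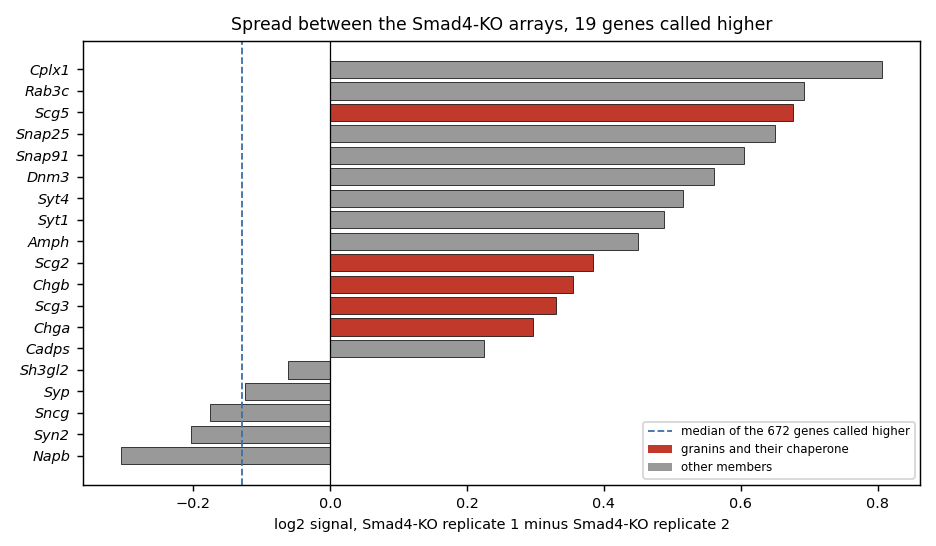
log2 signal of Smad4-KO replicate 1 minus that of replicate 2 for the 19 genes called higher; red bars are the granins and their chaperone, grey bars the other members, and the dashed line is the median of the 672 genes called higher. Bars of 14 genes point right, the 5 red ones included, while those of Sh3gl2, Syp, Sncg, Syn2 and Napb point left.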

How the data were processed

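Probe set values of 4 arrays were analysed. The deposited values are intensity on a linear scale, and the submitters' processing notes list RMA and Affymetrix Expression Console. The values do not have the form of RMA: they are not logged, between 253 and 324 on an array are under 1, and each array has a mean of 500 once 2% is trimmed at each end, as with MAS5 scaling. No detection calls were used here.

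Of 45101 probe sets, 34945 outside 64 controls had 1 symbol (932 had several, 1 of them naming Vamp1, and 9160 none; both left out). The brightest probe set by mean log2 value over the 4 arrays stood for a gene. Genes below the 25th percentile (5.64, a signal of 50.0) were left out, leaving 13645. Genotypes were compared with limma 3.58.1 in R 4.3.3 (lmFit, eBayes, two-sided, genotype as the only term, Benjamini-Hochberg over all genes, threshold 0.05), and checked on simulated data. Tables and figures used Python 3.11.15, pandas 2.3.3 and matplotlib 3.10.9. The number of arrays limits the precision.

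All 36 members are reported. Of each related list, up to 4 called genes with the largest differences are named, or the 2 of lowest p. The members and lists were chosen with earlier results of these data known. Protein sequences were not used here. Alternatives were a replicate block, a block of crossed pairs, 2 scalings, 2 filters, other uses of probe sets, another variance model, a floor of 64, leaving out each array and a threshold of 0.10.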

Additional observations from a re-analysis of the deposited data

How the results depend on the processing

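No called member changed sign under any alternative run, and 171 of the 240 values computed for them stayed past the threshold. For most alternatives the sign could not have changed, so its constancy says little. Both Smad4-KO arrays of every called member lay above both WT arrays, which fixes the sign when an array is left out. Blocks, filters and the variance model leave the difference as it is. The count of genes past the threshold was 861. It was 1321 with the replicate block, 1403 at an adjusted p of 0.10, 518 when a gene's probe sets were averaged and 205 among single probe sets. It was 0 with crossed pairs as a block (2658 at an unadjusted p under 0.05) and 0 without a filter (2788), and 0 to 808 when an array was left out. The members' count of 19 was 0 with crossed pairs and 0 without a filter (27 at an unadjusted p under 0.05 in each), and 0 to 18 when an array was left out. The labels do not say whether replicate numbers pair the arrays. The replicates' deviations correlated at -0.01 between genotypes, across genes, which cannot exclude pairing for part of the genes. Summed fat cell signal was higher in the first replicate of both genotypes, at 72678 against 30922 in WT and 67439 against 32328 in Smad4-KO. Pairing was not tested further. With the replicate block 23 members were called, Rims1, Rims2, Bsn and Unc13a being added. The members' median of 2.49 was 2.37 after quantile normalization, 2.34 with median centring, 2.98 with the filter at the 50th percentile, 2.34 with the mean of probe sets, 1.88 over single probe sets, 2.30 with the floor of 64, and 2.41 to 2.66 when an array was left out. The direction turned for members that were not called: Vamp1 (-0.47) and Nsf (-0.19) with the mean of probe sets, Vamp2 with that mean (-0.11), quantile normalization (-0.021) or centring (-0.14). When an array was left out, Vamp2 ran from -0.31 to 0.35 and Sncb from -0.68 to 1.54. The causes were not tested. Low WT signals limit the folds of 8 called members to bounds.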
